A study of Oryza sativa with 8 samples.

Results

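Glutathione S-transferases (GSTs) are the 57 of 37869 rice genes whose deposited description contains that enzyme name, and they are followed here through the root transcriptomes of nontransgenic (NT) plants and of plants with root-specific overexpression of OsERF48 (ROX). The match was made on the description text alone, so it took in genes described only as carrying a GST domain, and no expression value was used to choose a gene. All plants were of the cultivar Ilmi and 2 weeks old, grown under normal conditions, and RNA was taken from the roots. NT plants carry no transgene. In ROX plants the RCc3 promoter, which is active in roots, drives OsERF48, an AP2/ERF transcription factor, and the labels list 2 lines, #2 and #6.

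Expression was given as FPKM, the fragments assigned to a gene divided by its length and by the number of mapped fragments, in 4 NT and 4 ROX libraries. The column names have 2 styles, called here Root and Set after a word in them, and each style holds 2 NT and 2 ROX libraries. The names do not say which line a library came from, and those of the Set ROX libraries give ERF48 but no promoter, so that they were taken as ROX because the series lists no other OsERF48 plants. The methods describe biological replicates from the lines, each with technical replicates, but not which columns are which. The libraries of a pair may therefore be technical replicates of 1 sample, and p-values measure only the spread between these libraries. With the pairs averaged, none of the calls made over both sets below remained. Across the 26136 genes tested, Pearson correlations of log2(FPKM + 1) were 0.962 to 0.997 for libraries within a set and 0.828 to 0.888 for libraries of different sets. Estimated depth was 37600000 to 43600000 fragments in the Root and 46800000 to 49600000 in the Set libraries. OsERF48 itself stood at 86.6 and 86.2 FPKM in Root NT, 464 and 470 in Root ROX, 65.9 and 59.3 in Set NT and 816 and 612 in Set ROX. The 3 root markers (RCc3 and the silicon transporters Lsi1 and Lsi2) summed to 1971 to 2010 FPKM in Root NT, 1452 to 1531 in Root ROX, 2091 to 2337 in Set NT and 2321 to 2334 in Set ROX, and none was at 0. All 3 were lower in ROX in Root and 1 of 3 in Set, and RCc3 fell from a mean of 314 to 157 FPKM in Root (log2 fold change −0.998, limma adjusted p = 0.00103) against 1422 and 1561 in Set. The 5 green leaf markers (3 Rubisco small subunit genes and 2 chlorophyll a/b-binding proteins), none of them at 0 in any library, summed to 28.9 to 30.5 FPKM in Root NT, 13.9 to 14.0 in Root ROX, 10.8 to 13.8 in Set NT and 5.25 to 6.14 in Set ROX. All 5 were lower in ROX in the Root and 4 of 5 in the Set libraries, and the part of either shift in the GST values was not tested.

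GSTs join the tripeptide glutathione to reactive, electrophilic compounds, which makes these more soluble and marks them for transport into the vacuole. In plants the large tau and phi classes are known for the detoxification of herbicides, and individual GSTs also reduce organic peroxides or carry flavonoids. Roots meet many such compounds in the soil.

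The 57 genes lie on 12 chromosomes of the IRGSP-1.0 build, with 16 on chromosome 1 and 18 on chromosome 10. Taking genes no more than 100000 bases apart as neighbours, 34 of them formed 6 physical clusters, the largest with 15 genes on chromosome 10 between Os10g0525400 (from 20432061) and Os10g0531400 (to 20646880). The others held 7, 4 and 2 genes on chromosome 1, 4 on chromosome 3 and 2 on chromosome 12, and 23 genes stood alone. The descriptions place 6 genes in the tau and 5 in the phi class and leave 46 without a class. Transcripts number 64, and 51 of the genes have 1. Neighbours in a cluster can be close copies, and reads shared between copies could be divided among them in a way that the deposited values do not show. Of the 57 members, inside and outside the clusters, 20 overlap another annotated gene, and the overlap is given below for some of them.

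The GST transcripts were dominated by a few genes. Averaged over the 8 libraries, 21 members were at 10 FPKM or more, 23 between 1 and 10, and 13 below 1, and the 8 highest held 70.9% of the summed GST FPKM. Os01g0949750, described as similar to GST 28, had the highest mean, 182 FPKM, with 242 and 237 in Root NT, 178 and 181 in Root ROX, 201 and 133 in Set NT and 140 and 147 in Set ROX. Its neighbour in the chromosome 1 cluster of 4, Os01g0949800, also similar to GST 28, averaged 141 FPKM. Os01g0764000, of the phi class, came second with 67.3 and 69.0 in Root NT, 69.9 and 79.8 in Root ROX, 237 and 288 in Set NT and 288 and 332 in Set ROX. This gene overlaps Os01g0764050, which was at a mean of 275 FPKM in Root NT and 1219 in Set NT, and reads of the pair may not be separable.

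Os09g0467200, similar to GST 23, averaged 94.3 FPKM, and Os12g0210300, similar to GST 18, averaged 89.1. The remaining 3 of the top 8 were Os01g0371500 (54.8), Os02g0319300 (51.5) and Os10g0531400 (37.1). Ranges over the 8 libraries overlapped between each of these genes and the next in order, except that the lowest value of Os12g0210300 (70.965) was just above the highest of Os01g0371500 (70.9545). These ranges pool the 2 library sets, and within a set neighbours in this order could lie apart. In Root NT, Os02g0319300 was at 41.4 and 45.4 FPKM and Os10g0531400 at 66.6 and 63.2. In Set NT the order was reversed, with 78.3 and 56.9 against 23.3 and 14.6. Summed over all members, GST transcripts made up 0.156% and 0.154% of all FPKM in Root NT, 0.116% and 0.119% in Root ROX, 0.176% and 0.151% in Set NT and 0.152% and 0.154% in Set ROX. The summed share was lower in both Root ROX than in both Root NT libraries, whereas the Set ROX values lay within the range of Set NT.

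**Figure D1:**
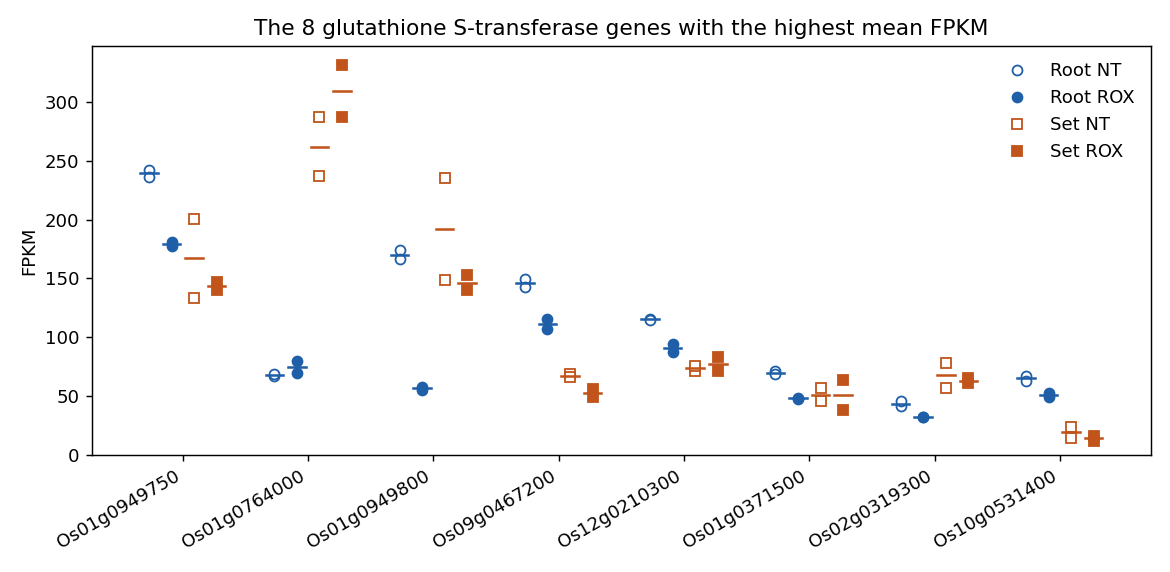
FPKM of the 8 GST genes with the highest mean, in each library (points) with the mean of each pair (short line). Circles are Root and squares Set libraries, open for NT and filled for ROX. Os01g0764000 spans 237 to 332 FPKM in the 4 Set libraries and 67.3 to 79.8 in the 4 Root libraries, while Os01g0949800 is at 55.2 and 57.9 in the 2 Root ROX libraries and higher in the other 6.

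At the other end, 9 members had a mean below 0.5 FPKM and were not tested. Os01g0353400 and Os10g0530300 were at 0 in all libraries. Os10g0530500, similar to GST Cla47, was represented by 1 fragment in Root NT and 0 in Root ROX, against 26 in Set NT and 5 in Set ROX. Os01g0371200 was at 0.10002 and 0.0884 FPKM in Root NT, 0.0334 and 0.0284 in Root ROX, 0.466 and 0.492 in Set NT and 0.406 and 0.447 in Set ROX. It overlaps Os01g0371300, which had means of 1.13 FPKM in Root NT and 0.0998 in Root ROX. In Set that gene was at means of 0.673 in NT and 0.781 in ROX, and reads of the pair may not be separable. The other 48 members entered every test, and their median of the mean level was 7.34 FPKM against 8.15 for all 26136 genes tested.

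As among all genes tested, more GST genes separated the 8 libraries by set than by genotype. All 4 Set libraries were above all 4 Root libraries for 14 of the 48 members (29.2%, against 36.1% of all genes tested), and all 4 were below for 11 (22.9%, against 28%). All 4 ROX libraries were above all 4 NT libraries for 1 member (2.08%, against 2.07%) and below for 4 (8.33%, against 3.3%). In NT roots alone, 10 members differed by at least 4-fold in mean level, with 8 higher in Set and 2 higher in Root. The share of all genes this far apart was not computed. Some of these ratios rest on a few fragments. Os10g0530600 had 0 and 1 and Os10g0528200 2 and 6 in Root NT, and Os01g0371400 had 6 and 3 in Set NT. Among those higher in Set NT were 3 adjacent genes on chromosome 3, the phi-class Os03g0134900 (5.96 times the Root NT mean) and Os03g0135100 (4.31 times) and Os03g0135200 (6.32 times), whereas the next gene along, Os03g0135300, was at 0.886 times. Os10g0481300 and Os10g0543800, which stand outside the clusters, were at 5.69 and 4.43 times. Of the pair higher in Root NT, Os10g0530400 was at 0.186 times its Root NT level in Set NT, and the phi-class Os01g0371400 at 0.180 times. What else distinguishes the Root from the Set plants or libraries is not stated in the column names.

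**Figure D2:**
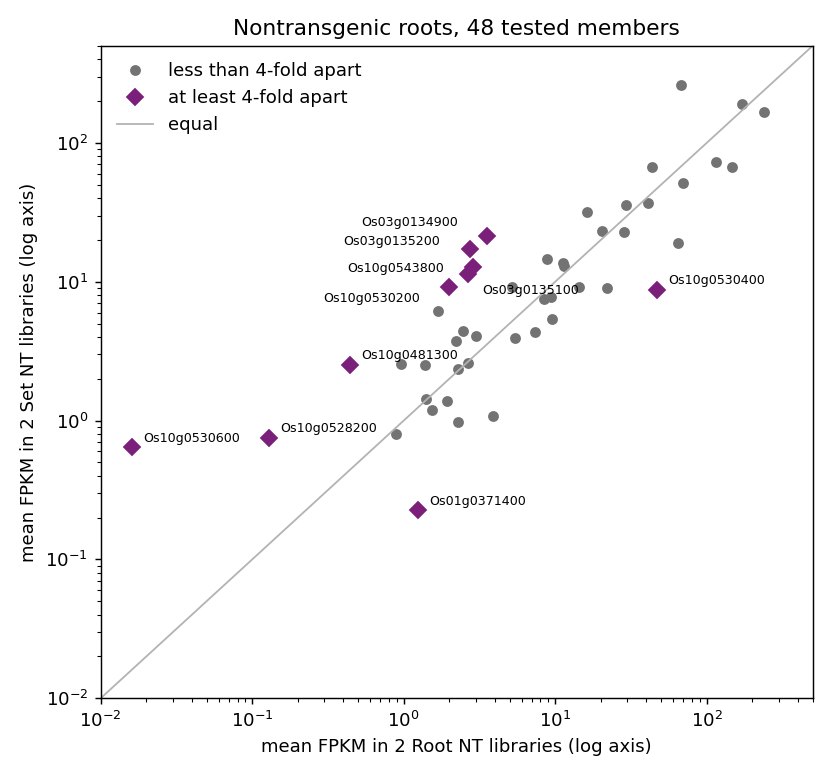
Mean FPKM of the 48 tested members in the 2 Set NT libraries (vertical, log axis) against the 2 Root NT libraries (horizontal, log axis), with the line of equality. Diamonds mark the 10 members at least 4-fold apart, of which 8 lie above the line and 2, Os10g0530400 and Os01g0371400, below it.

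Comparing ROX with NT over both sets asks which GSTs differed in level between the ROX and NT libraries. In this comparison 1 member rose (Os04g0435500) and 4 fell (Os03g0595600, Os01g0692100, Os08g0293400 and Os09g0467200). Changes are given as log2 fold changes of FPKM + 1, which understate the change of genes at low level, and a call required an adjusted p under 0.05 in limma, with the library set as a covariate and Benjamini-Hochberg adjustment over all 26136 genes. The rise was 1 of 48 members (2.08%, against 2.74% of all genes tested) and the falls 4 of 48 (8.33%, against 4.34%). An unadjusted p under 0.05 was reached by 17 members (35.4%, against 27.9%). The median change of the 48 was −0.14, against −0.05 over all genes, and 34 of the 48 had a change below 0 (60.4% of all genes did). Without the library set as a covariate no member passed in limma, and 0.172% of all genes did. In that fit 6 members were at an unadjusted p under 0.05 (12.5%, against 5.48% of all genes). With the 2-fold limit of the study and an unadjusted p under 0.05, 0 members rose and 1 fell, Os03g0595600 (1.31% and 0.314% of all genes).

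Os04g0435500, a single gene on chromosome 4 (21662080 to 21664310) described as carrying a GST C-terminal-like domain, was at 11.04 and 11.8 FPKM in Root NT, 26.0 and 27.5 in Root ROX, 12.5 and 13.5 in Set NT and 17.5 and 18.4 in Set ROX. All 4 ROX libraries were above all 4 NT libraries, the only one of the 48 members for which this held (2.07% of all genes). The log2 fold change was 0.80 (SE 0.14, limma adjusted p = 0.0227), and an exact two-sided permutation test of 4 against 4 libraries gave p = 0.0286, the smallest it allows. Most of its signal was assigned to the shorter of 2 transcripts, 1332 bases long, which went from 10.8 and 11.7 FPKM in Root NT to 24.6 and 25.8 in Root ROX. The rise in the Root libraries (1.16, SE 0.07) was larger than in the Set libraries (0.44, SE 0.07), and this difference of 0.72 passed its own test in limma (adjusted p = 0.00326).

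Os03g0595600, on chromosome 3 (22160411 to 22161462) and similar to a GST N-terminal domain protein, had the largest fall. It was at 2.01 and 1.34 FPKM in Root NT, 0 and 0.0416 in Root ROX, 9.09 and 3.32 in Set NT and 2.38 and 0.468 in Set ROX. ROX was below NT in each set, but NT and ROX libraries overlapped across sets (exact permutation p = 0.0857). The log2 fold change was −1.47 (SE 0.33, limma adjusted p = 0.0418). In the Root libraries these levels correspond to 72 fragments in NT and 1 in ROX, a ratio of 73.3 with a 95% exact interval of 12.7 to 2933 that covers counting error only. Within a set neither fall passed in limma (adjusted p = 0.0557 in Root and 0.0926 in Set).

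Os01g0692100, on chromosome 1 (28568839 to 28569792), has a GST C-terminal-like domain and lies beside the tau-class Os01g0692000. It was at 1.29 and 1.503 FPKM in Root NT, 0.758 and 0.644 in Root ROX, 1.32 and 1.55 in Set NT and 0.548 and 0.808 in Set ROX. All ROX libraries were below all NT libraries, as for 4 of the 48 members (8.33%, against 3.3% of all genes), the others being Os10g0525400, Os10g0529500 and Os12g0123200. The log2 fold change was −0.52 (SE 0.08, limma adjusted p = 0.0143), and the exact permutation test gave p = 0.0286. Its neighbour Os01g0692000 did not pass, with a log2 fold change of −0.08. The gene overlaps Os01g0692050, which was at or below a mean of 0.0229 FPKM in each pair.

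Os08g0293400, an intronless gene on chromosome 8 (11797651 to 11798466), was at 2.40 and 2.19 FPKM in Root NT, 1.16 and 1.37 in Root ROX, 1.001 and 0.954 in Set NT and 0.443 and 0.525 in Set ROX. Within each set both ROX libraries were below both NT libraries, and the log2 fold change was −0.48 (SE 0.07, limma adjusted p = 0.012). It overlaps Os08g0293300, which had lower ROX means too (4.53 and 2.40 FPKM in Root NT and ROX, 1.56 and 0.713 in Set), and reads of the pair may not be separable.

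Os09g0467200, similar to GST 23 and at chromosome 9 (17747275 to 17748705), was the only called gene among the 8 most abundant members. Os09g0467300, which overlaps it, was at or below a mean of 4.85 FPKM in each pair. Os09g0467200 was at 150 and 143 FPKM in Root NT and 107 and 116 in Root ROX. In Set it was at 68.3 and 66.0 in NT and 49.1 and 55.7 in ROX. Its log2 fold change was small but alike in both sets, −0.37 overall (SE 0.06, limma adjusted p = 0.0145), −0.39 in Root and −0.36 in Set. For this gene and for Os08g0293400, the distance between the sets exceeded that between genotypes, and the libraries of NT and ROX overlapped once the sets were pooled (exact permutation p = 0.457 and 0.171). Leaving out a single library ended the call of each of the 5 genes at least once, and in most cases that library was one of the 4 Root libraries.

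**Figure D3:**
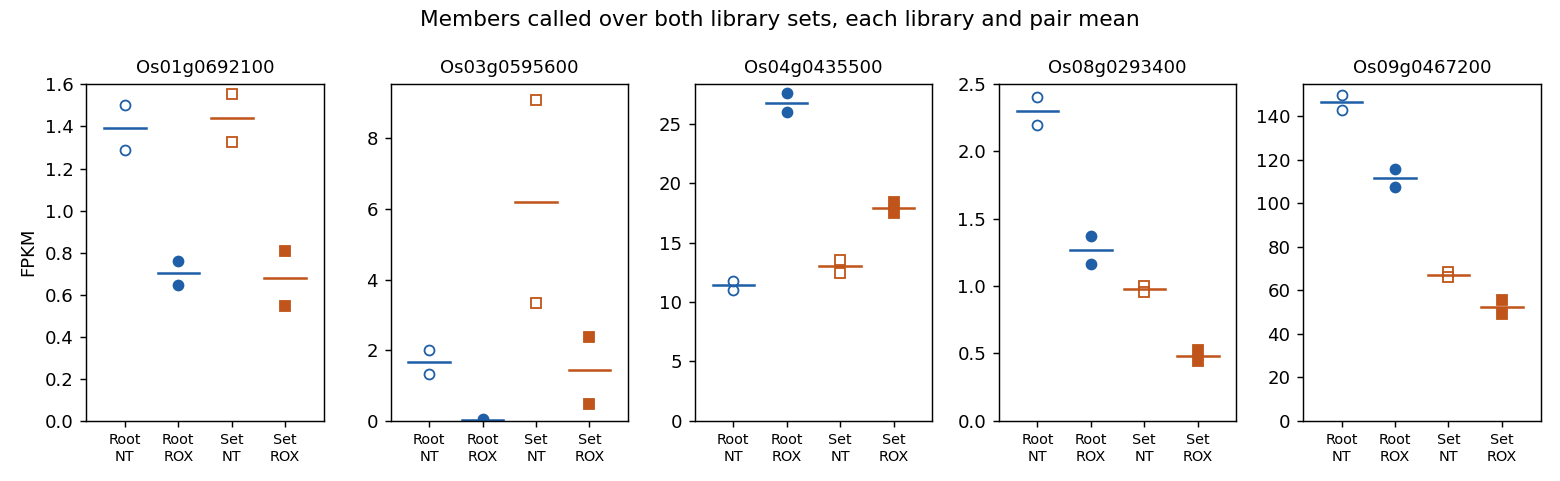
FPKM of the 5 members called over both sets, in each library (points) with the mean of each pair (line). Each panel has its own axis from 0. Os04g0435500 is higher in ROX in both sets, with the wider gap in Root, and the other 4 are lower in ROX in both sets.

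Within the Root libraries more GSTs were lower than higher in ROX. Of the 48, 17 were lower (35.4%, against 21.3% of all genes tested) and 3 were higher (6.25%, against 14.4%), with a median change of −0.26 against −0.07 over all genes. Within the Set libraries 4 were lower (8.33%, against 4.05%) and 1 was higher (2.08%, against 3.5%), with a median of −0.05 against −0.02. The sign was negative in both sets for 22 members (45.8%, against 35.3% of all genes) and positive in both for 7 (14.6%, against 19.1%), while 13 were negative in Root and positive in Set (27.1%, against 24.9%) and 6 the reverse (12.5%, against 20.5%). Calls in the same direction in both sets were made for Os01g0692100, Os08g0293400 and Os09g0467200 (lower) and Os04g0435500 (higher). The Set call of Os08g0293400 did not pass with any 1 of the 8 libraries left out, those of Os01g0692100 and Os09g0467200 passed only without Set ROX 2, and that of Os04g0435500 was lost only without Set NT 1 (limma adjusted p = 0.0619). A change that differed between the sets was called for 12 members (25%, against 21.5% of all genes), with 9 more negative in Root (18.8%, against 10.8%) and 3 more positive (6.25%, against 10.7%). The counts within Root rest on pairs that are very close, and leaving out 1 Root library left 8 to 10 members lower (16.7% to 20.8%, against 8.86% to 10.6% of all genes in the same fits) and 1 higher (2.08%, against 8.75% to 9.4%). The root and leaf markers given above were also lower in Root ROX.

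Os01g0949800 had the largest fall in Root on the log2(FPKM + 1) scale, on which low genes such as Os03g0595600 change less than by the ratio of their levels. It was at 174 and 166 FPKM in Root NT, 55.2 and 57.9 in Root ROX, 236 and 149 in Set NT and 140 and 153 in Set ROX. Root ROX stood apart from the other 3 pairs, and the log2 fold change was −1.57 (SE 0.19, limma adjusted p = 9.1e-04) in Root, a 3.01-fold lower mean, against −0.35 (adjusted p = 0.296) in Set. The difference between the sets, −1.22, passed at an adjusted p of 0.0178. Its neighbour Os01g0949750, with a similar description and level, changed less, by −0.41 in Root and −0.19 in Set, and passed in neither (adjusted p = 0.0891 and 0.543). Os01g0949700 and Os01g0950000, at the ends of the same cluster, also did not pass.

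Os10g0530400, similar to GST Cla47, also fell in Root. It was at 48.8 and 45.4 FPKM in Root NT, 15.7 and 18.02 in Root ROX, 9.44 and 8.06 in Set NT and 5.84 and 8.16 in Set ROX. The log2 fold change was −1.43 (SE 0.15, limma adjusted p = 4.8e-04) in Root and −0.30 (adjusted p = 0.265) in Set, with a difference of −1.13 (adjusted p = 0.00965). Root ROX was still above every Set library.

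Os10g0530200, similar to GST TSI-1, lies next but one to it, with Os10g0530300 at 0 between them, and moved the other way in Root. It was at 1.94 and 2.06 FPKM in Root NT, 4.98 and 5.44 in Root ROX, 9.64 and 8.56 in Set NT and 10.9 and 5.12 in Set ROX. The change was 1.05 (SE 0.27, limma adjusted p = 0.0206) in Root and −0.24 (adjusted p = 0.639) in Set, where 1 ROX library was above and 1 below the NT pair. The difference of 1.29 was the largest among the members and passed narrowly (adjusted p = 0.0494). Without any 1 of the 4 Root libraries neither the Root change (adjusted p = 0.080 to 0.105) nor the difference passed.

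The tau-class Os10g0525800, similar to GSTU31, was also higher in Root ROX, at 2.50 and 2.76 FPKM against 1.44 and 1.31 in NT, and it was at 3.09 and 1.90 in Set NT and 1.99 and 1.90 in Set ROX. Its changes were 0.61 in Root (limma adjusted p = 0.0202) and −0.23 in Set (adjusted p = 0.425), with a difference of 0.84 (adjusted p = 0.0346). Os10g0525400, described with the same name GSTU31, was instead lower in Root ROX (−0.81, adjusted p = 0.00268), at 0.825 and 0.520 FPKM against 2.06 and 1.78 in NT. Os03g0785900, a single gene, was at 16.8 and 15.5 FPKM in Root NT, 9.50 and 11.02 in Root ROX, 32.6 and 31.3 in Set NT and 41.0 and 29.6 in Set ROX. Its change was −0.61 in Root (adjusted p = 0.0156) and 0.12 in Set (adjusted p = 0.663), and the difference of −0.73 passed at an adjusted p of 0.0427.

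One member was lower in the Set libraries but did not pass in Root. Os10g0528100, similar to GST 42, was at 9.52 and 9.49 FPKM in Root NT, 9.02 and 8.60 in Root ROX, 7.22 and 3.49 in Set NT and 1.79 and 2.13 in Set ROX. The log2 fold change was −1.04 in Set (SE 0.24, limma adjusted p = 0.0477) and −0.10 in Root (adjusted p = 0.785), and the difference of 0.94 did not pass (adjusted p = 0.0952). Leaving out each library in turn gave Set changes from −1.47 to −0.60.

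**Figure D4:**
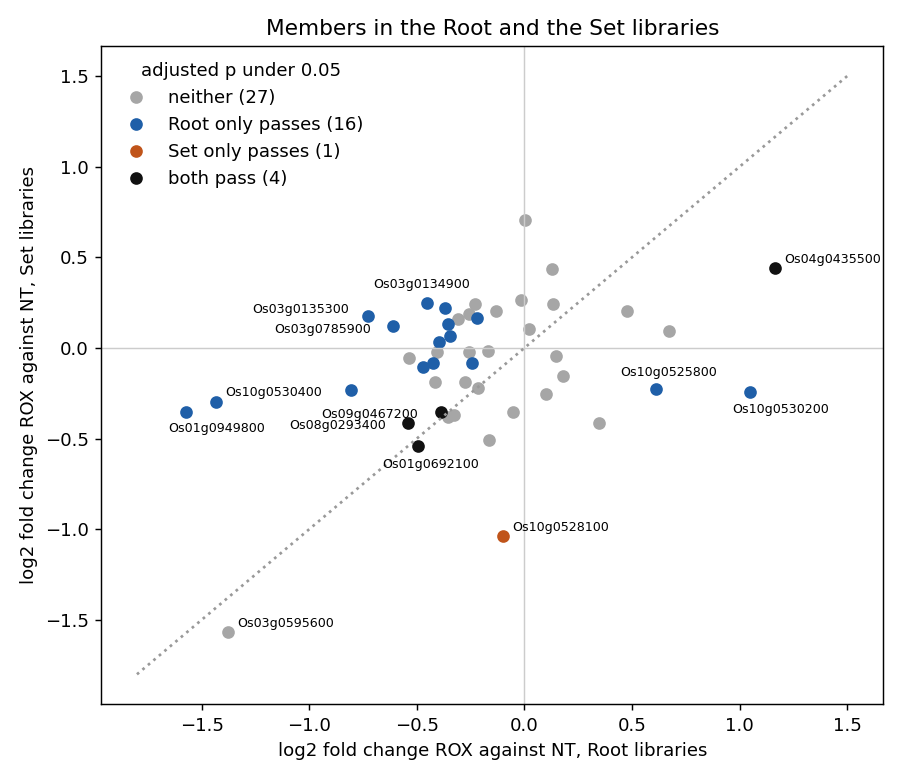
Log2 fold change (ROX against NT) of the 48 tested members in the Root (horizontal) and Set (vertical) libraries, coloured by which comparison passed an adjusted p of 0.05, with the dotted line of equality. Of the members, 27 passed in neither, 16 only in Root, 1 only in Set and 4 in both.

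The clusters differed in how evenly their genes moved. The 4 genes of the chromosome 3 cluster, spanning 1938240 to 1955959, all had negative changes in Root and positive ones in Set. In Root, Os03g0134900 (−0.45, limma adjusted p = 0.00758), Os03g0135100 (−0.37, adjusted p = 0.0291) and Os03g0135300 (−0.73, adjusted p = 3.1e-04) fell and Os03g0135200 (−0.26, adjusted p = 0.17) did not pass. Os03g0135100 overlaps Os03g0135150, which had means of 7.01 FPKM in Root NT, 3.43 in Root ROX, 24.9 in Set NT and 27.1 in Set ROX, and reads of the pair may not be separable. None passed in Set in limma, where the changes were 0.25, 0.22, 0.19 and 0.17 in chromosomal order and 2 had an unadjusted p under 0.05. The difference between the sets passed in limma for the same 3 genes and was widest for Os03g0135300 (−0.90, adjusted p = 0.00107). That gene was at 8.49 and 8.48 FPKM in Root NT, 4.79 and 4.66 in Root ROX, 7.34 and 7.70 in Set NT and 8.58 and 8.64 in Set ROX. Over all genes tested, 21.3% were called lower in Root and 24.4% had an unadjusted p under 0.05 in Set. For 24.9% the change was negative in Root and positive in Set. A difference more negative in Root was called for 10.8%.

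In the chromosome 10 cluster 13 of the 15 genes were tested. None was called over both sets in limma, with 5 at an unadjusted p under 0.05 (27.9% of all genes tested). In Root, 2 were higher (Os10g0530200 and Os10g0525800) and 2 lower (Os10g0530400 and Os10g0525400), so that genes of the same cluster moved in opposite directions. In Set 1 was lower (Os10g0528100). Over all genes tested, 14.4% were higher and 21.3% lower in Root, and 4.05% were lower in Set. The cluster's median change was 0.00 in Root and −0.23 in Set. Os10g0530600, similar to GST 20, was close to 0 in Root, with 1 fragment in Root NT, 1 in Root ROX, 44 in Set NT and 127 in Set ROX. Its log2 fold change of 0.71 in Set did not pass (limma adjusted p = 0.116), and it overlaps Os10g0530750, which had means of 1.04 and 3.27 FPKM in Set NT and Set ROX.

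The 2 genes on chromosome 12, Os12g0210200 and Os12g0210300, both similar to GST 18, fell by 0.22 and 0.35 in Root (limma adjusted p = 0.0497 and 0.0189) and changed by 0.16 and 0.07 in Set, where neither passed. In the chromosome 1 cluster of 7 only 3 genes were tested and none passed over both sets in limma (1 at an unadjusted p under 0.05) or in either set, including the abundant Os01g0371500 (71.0 and 68.6 FPKM in Root NT, 47.2 and 48.6 in Root ROX, 45.6 and 56.7 in Set NT, 37.7 and 63.2 in Set ROX). By class, 2 of 4 tested phi genes and 1 of 5 tau genes were lower in Root, and 1 tau gene was higher. Over all genes tested, 21.3% were lower and 14.4% higher in Root.

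**Figure D5:**
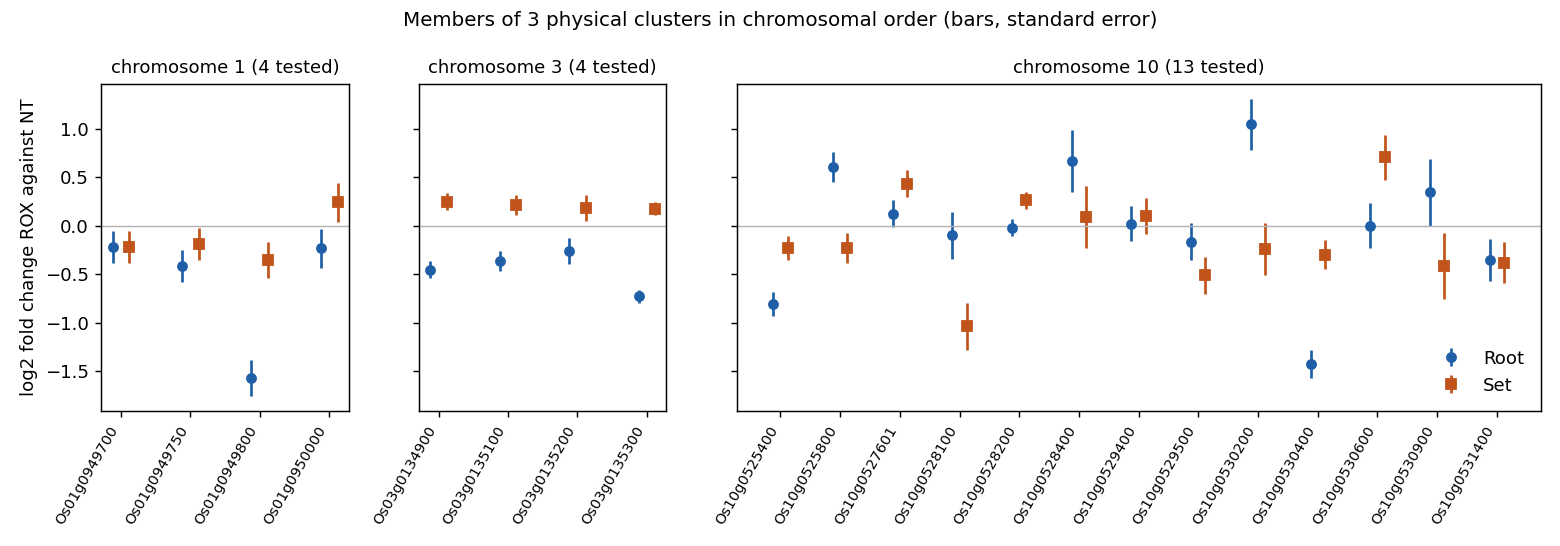
Log2 fold change (ROX against NT, bars show the standard error) in Root (circles) and Set (squares) for the tested genes of 3 clusters in chromosomal order. The 4 genes on chromosome 3 lie below 0 in Root and above 0 in Set, while those on chromosome 10 scatter on both sides of 0.

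Outside the clusters, 8 of the 20 tested genes were lower in Root and 1 higher (21.3% and 14.4% of all genes tested). Besides those described, Os11g0245100, similar to GST 2, was at 21.5 and 22.6 FPKM in Root NT, 16.9 and 17.2 in Root ROX, 8.84 and 9.28 in Set NT and 9.52 and 10.5 in Set ROX. It fell by 0.35 on the log2 scale in Root (limma adjusted p = 0.0075), while in Set its change was 0.13. Os10g0543800, similar to GST 11, fell by 0.40 in Root (adjusted p = 0.0087) and changed by 0.04 in Set, at 12.1 and 13.4 FPKM in Set NT and 12.9 and 13.3 in Set ROX.

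The estimated levels of the transcripts of a gene did not always keep their proportions. The longer transcript of Os04g0435500, 2123 bases, was at 0.227 and 0.0779 FPKM in Root NT and 1.36 and 1.77 in Root ROX, a minor part of the gene in each. Os01g0369700 has a pair of transcripts of nearly equal length. The 868-base one was at 5.52 and 6.72 FPKM in Root NT and 3.30 and 3.54 in Root ROX. The 864-base one was at 5.59 and 4.61 in Root NT and 4.52 and 5.09 in Root ROX. In Set, the 868-base one was at 10.96 and 5.97 in NT and 9.34 and 5.60 in ROX. There the 864-base one was at 5.27 and 5.30 in NT and 8.42 and 4.31 in ROX. The gene overlaps Os01g0369800, which had means of 21.6 FPKM in Root NT and 16.8 in Root ROX, and reads of the pair may not be separable. Os01g0764000 has 3 annotated transcripts, of which the first held nearly all FPKM in the Root and Set NT libraries. The third, 963 bases long, was at 6.16 and 36.6 FPKM in the Set ROX libraries and at no more than 0.0289 in the other 6, and that pair differed widely. These transcript levels were not tested.

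The enzymes that supply, recycle or compete for glutathione were taken as lists by description. The counts of these and the later lists stand beside 2.74% of all genes tested called higher over both sets and 4.34% called lower. An unadjusted p under 0.05 in limma was reached by 27.9% of all genes, and 60.4% had a change below 0. Of the glutathione peroxidases, which reduce peroxides and in plants mostly draw on thioredoxin, 3 of 7 tested genes rose over both sets and none fell. These were Os06g0185966 (1.10, SE 0.13, limma adjusted p = 0.00625), from mean levels of 0.854 to 3.93 FPKM in Root and 1.14 to 2.70 in Set, its neighbour Os06g0186000 (0.95, adjusted p = 0.00424) and Os02g0664000 (0.55, adjusted p = 0.00764). The most abundant peroxidase, Os04g0556300, rose in Root only (0.98, adjusted p = 4.6e-04, from a mean of 320 to 630 FPKM), with −0.16 in Set, and this difference passed (adjusted p = 0.00204). All 6 genes of glutathione synthesis had changes below 0 over both sets, and 1, Os12g0263050, similar to glutathione synthase, passed (−0.80, adjusted p = 0.025). None of 3 glutathione reductases, 13 glutaredoxins, 13 glyoxalases or 4 genes of glutathione breakdown passed over both sets in limma, where an unadjusted p under 0.05 was reached by 0, 3, 5 and 3 of them.

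In the ascorbate-glutathione cycle, Os08g0557600, similar to monodehydroascorbate reductase, which restores ascorbate, rose by 0.64 (limma adjusted p = 0.0169), from means of 74.5 to 139 FPKM in Root and 113 to 148 in Set. The other 5 dehydroascorbate and monodehydroascorbate reductases did not pass. Of 8 ascorbate peroxidases, 1 fell, the peroxisome-type Os09g0538600 (−0.39, adjusted p = 0.00625).

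Among other enzymes of detoxification, 5 of 131 tested cytochrome P450 genes rose and 12 fell (2.74% and 4.34% of all genes tested). The largest called changes were those of Os08g0507702 (−1.03), Os11g0151400 (1.02) and Os01g0854800 (−0.92), the last similar to a fatty acid omega-hydroxylase. None of 69 UDP-glycosyltransferases rose in limma (5 at an unadjusted p under 0.05) and 4 fell (4.34% of all genes tested), with Os02g0206700 at −0.75. In the list matched as ABCC transporters, the family that moves glutathione conjugates into the vacuole, 1 of 8 fell, Os01g0173900 (−0.40, limma adjusted p = 0.0265). That list also held 3 genes described as subunits of ribonuclease P/MRP, which are not transporters. Of these, Os05g0472300 and Os11g0677500 were among the 8 tested and did not pass over both sets. The other, Os11g0677425, was at 0 in all libraries and was not tested.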

How the data were processed

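Total RNA from NT and ROX roots was made into strand-specific libraries and sequenced on an Illumina instrument by a service provider. FPKM tables for genes and for transcripts were deposited by the authors, the latter with transcript lengths in bases. The build named in the processing notes is IRGSP-1.0, while the aligner and counter, and whether counting used strand, are not given in the sources used here. Starts were raised by 1. Of the per-sample columns, 8 per table were used, and 4 that match no sample of the study were not.

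Genes averaging 0.5 FPKM or more were fitted as log2(FPKM + 1) in limma 3.58.1 (R 4.3.3, variance trend) with the library set as a covariate, and a fit of 4 pair means gave the changes within each set and their difference. Depth came from steps in low FPKM values, of which 93.2% to 94.6% were within 0.1 of whole fragments. Fits were run on simulated data in which the libraries were independent of each other. That run does not cover pairs that are technical replicates. Python 3.11.15 and matplotlib 3.10.9 drew the figures.

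The rule for named genes took members called with at least a 2-fold change, the 8 highest levels, up to 6 of the largest differences between sets, the largest rise and fall of the largest cluster, up to 3 called genes of other lists, OsERF48 and the marker genes. Other members were named after their values were seen. Members and lists were chosen with earlier results of these data known. The alternatives were a pseudocount of 0.1, scaling by median ratios or by quantiles, no filter or a mean of at least 5 FPKM, no covariate, no trend, averaged pairs, sums over transcripts, other limits, each set alone, a replicate block and leaving out each library. The block and the fit without a covariate at the study's limits were chosen after seeing the data.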

Additional observations from a re-analysis of the deposited data

Results flagged for a closer look

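Changes in Root that differed from those in Set by a test of the difference itself (limma, adjusted p under 0.05) were found for 12 members. The difference, Root minus Set on the log2 scale, was 0.72 for Os04g0435500, which rose in both sets. It was −1.22 for Os01g0949800, −1.13 for Os10g0530400, −0.90 for Os03g0135300 −0.73 for Os03g0785900, −0.70 for Os03g0134900, −0.59 for Os03g0135100, −0.48 for Os11g0245100, −0.43 for Os10g0543800 and −0.38 for Os12g0210200, which fell in Root and did not pass in Set. For Os10g0530200 it was 1.29 and for Os10g0525800 0.84, and both rose in Root and did not pass in Set.

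One library lay far from the rest of its group, which here pools the ROX libraries of both sets. Os10g0530200 was at 10.9 FPKM in a Set ROX library, against 4.98 to 5.44 in the other 3 ROX libraries. The level of this gene differed between the sets, with 1.94 and 2.06 in Root NT and 9.64 and 8.56 in Set NT. The flagged value lay above the Set NT pair, and the other Set ROX value, 5.12, lay below it. Chance alone can flag groups in this way, at a rate that was not computed.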

How the results depend on the processing

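Of 482 recomputed values for called and named members, none changed direction, 322 kept their side of the threshold and 160 no longer passed. Over both sets, against 1 member higher and 4 lower, there were 0 and 0 without the covariate (1 and 5 at an unadjusted p under 0.05) or with pairs averaged (1 and 6), 0 and 1 with the 2-fold limit, with or without the covariate, and 1 lower with a minimum mean FPKM of 5, where fewer genes were tested. Within Set, 1 was lower after quantile normalization, and 0 higher and 0 lower with the Set libraries alone (2 and 6 unadjusted). Within Root, 6 were higher with the Root libraries alone. Without the covariate, 0.172% of all genes tested passed over both sets. Shares of all genes are not given here for averaged pairs, the higher minimum, quantile normalization or each set alone. Leaving out each library gave 0 to 3 higher and 0 to 8 lower over both sets, 1 to 5 and 8 to 19 in Root, 0 to 2 and 0 to 6 in Set, and differences of 3 to 9 more negative and 1 to 5 more positive in Root. Over both sets, 0.844% to 2.7% of all genes were called higher and 0.699% to 4.62% lower in these 8 refits. The share called lower was 0.699% to 0.901% without a Root library and 3.87% without Set NT 2. The low counts over both sets and in Root came without Root NT 1, Root NT 2, Root ROX 1 or Root ROX 2. The highest count of falls, 8, came without Set NT 2. Os04g0435500 lost its call without any of these 4 Root libraries (adjusted p = 0.0715 to 0.0831) and kept it without any Set library. Os03g0595600 kept its call only without Set NT 2 or Set ROX 1. The differences between sets of Os04g0435500, Os10g0530400, Os03g0135300 and Os03g0134900 passed without each of the 8 libraries, those of Os01g0949800 and Os11g0245100 only where a Set library was left out, and the other 6 in 1 or 2 of the 8 refits. The cause was not tested.

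Deviations of same-numbered libraries correlated at 0.0238 in Root and at 0.257 in Set, where NT and ROX columns share a set number, so the numbers were not taken as pairing all libraries, although the Set value leaves room for pairing there. With a replicate block on these numbers 0 members were higher and 1 lower. The share of all genes in that fit is not given here. Depth limits members below 1 FPKM, some of which rest on a few fragments.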
